A study of Mus musculus with 11 samples.

Results

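Integrin and laminin subunits were described in 11 RNA-sequencing libraries of cultured mouse mammary carcinoma cells. The members were all genes of the counts table whose symbols name an integrin α chain (18 genes), an integrin β chain (8 genes) or a laminin chain (11 genes), which gave 37 of 21846 genes, chosen by symbol and not by level. All libraries came from the MamBo lines, established from mammary tumors of virgin female FVBhuHER2 mice, which carry a human HER2 transgene. The promoter of the transgene and the age of the mice are not given in the sources used here. HER2 is a receptor tyrosine kinase, and trastuzumab is an antibody against its human form.

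Tumor A gave the MamBo89 line, which kept HER2, and tumor B gave the MamBo43 line, which lost it easily. MamBo38 was grown from a tumor that arose after injection of MamBo43 cells and had no HER2 on its surface. MamBo89 had 4 libraries, namely an untreated culture named AG3 (replicate 1), an untreated culture (replicate 2), a culture kept for 30 days with trastuzumab at 30 µg/ml and then 30 days without (replicate 3), and a culture kept for 60 days with it (replicate 4). The study's methods list a HER2-positive clone of MamBo89, and AG3 is the MamBo89 library left for it, although its label does not say so. MamBo38 had 4 libraries, from 2 untreated cultures (replicates 1 and 2) and from the same 2 trastuzumab schedules (replicates 3 and 4). MamBo43 had 1 untreated library and 2 trastuzumab libraries (30 days then 30 days without, and 60 days). The HER2-negative group held MamBo38 and trastuzumab-treated MamBo43 (6 libraries), and the HER2-positive group held MamBo89 and untreated MamBo43 (5 libraries). The study describes small islets of polygonal cells that persisted in treated MamBo43 cultures, and a minority of cells that still carried HER2. Each line is a single tumor lineage, so that line, tumor and HER2 status cannot be told apart between MamBo38 and MamBo89. The number code in the library names adds to this, since 3 of the 4 MamBo38 libraries carry a code that no other library has, so code and line are nearly confounded in every comparison with MamBo38. What the code stands for is not given in the sources used here. Nothing in the labels says that libraries of a line came from separate cultures started independently, and p-values measure the spread between these libraries.

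The library totals ranged from 17040454 to 27127662 counts, with a median of 20592201, and 3 counts corresponded to 0.112 to 0.179 counts per 1000000 (CPM). The mouse gene Erbb2, where reads of the related human transgene may also have landed, stood at 118 to 167 CPM in the 5 HER2-positive libraries and at 17.7 to 31.6 CPM in the 6 HER2-negative ones. Luminal epithelial markers (Epcam, Cdh1, Krt8, Krt18, Krt19) summed to 2282 to 3711 CPM in MamBo89, 3144 CPM in untreated MamBo43, 276 to 1744 CPM in treated MamBo43 and 1.25 to 2.45 CPM in MamBo38. Krt19 was at 0 in all MamBo43 and MamBo38 libraries. MamBo38 replicate 2 is the single MamBo38 library whose name carries the same number code as all libraries of the other lines. It stood apart from the other MamBo38 libraries in several members. Several results that depend on it are given without it or beside its own value. In 13 comparisons of libraries of a group, counts differed by more than sampling noise, with chi-square per degree of freedom from 8.18 to 189. Pairs with the AG3 library had the highest values, 136 to 189, and other MamBo89 pairs had 15.1 to 44.0. No library was a copy of another.

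Laminins are secreted trimers of an α, a β and a γ chain that build the basement membrane, and the numbers of a trimer name its chains, so that laminin-511 holds α5, β1 and γ1. Integrins are surface receptors made of an α and a β chain, and the pair sets the ligand: α3β1, α6β1, α7β1 and α6β4 bind laminins, α1β1, α2β1, α10β1 and α11β1 bind collagens, and α5β1, α8β1 and the αv pairs bind proteins with an RGD motif such as fibronectin. The β2 and β7 chains belong to integrins of leukocytes. In the mammary gland, laminins and their integrins anchor the epithelium to its basement membrane, and α6β4 does so in hemidesmosomes. A transcript level says nothing of whether a chain was paired, secreted or on the surface.

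RefSeq promoter windows (GRCm38.p6) were found for 23 of the members in 26 windows, and the 250 bases before the start site are printed for 3 members whose levels differed widely between lines: Lama5 (nearly lost in MamBo38), Itga2 (high in MamBo89 alone) and Itgb7 (high in MamBo38 alone). Capitals mark the E-box CAGGTG or its reverse complement CACCTG, letters that zinc-finger repressors of epithelial genes can bind. The Lama5 window lies at chr2:180225860-180226109, the Itga2 window at chr13:114932101-114932350 and the Itgb7 window at chr15:102231936-102232185, each on the minus strand and read 5′ to 3′ on that strand.
Lama5: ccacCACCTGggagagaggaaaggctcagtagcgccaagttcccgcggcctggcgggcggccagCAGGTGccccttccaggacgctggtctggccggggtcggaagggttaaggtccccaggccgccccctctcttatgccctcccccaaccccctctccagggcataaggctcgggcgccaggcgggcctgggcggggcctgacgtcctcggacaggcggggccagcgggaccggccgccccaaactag
Itga2: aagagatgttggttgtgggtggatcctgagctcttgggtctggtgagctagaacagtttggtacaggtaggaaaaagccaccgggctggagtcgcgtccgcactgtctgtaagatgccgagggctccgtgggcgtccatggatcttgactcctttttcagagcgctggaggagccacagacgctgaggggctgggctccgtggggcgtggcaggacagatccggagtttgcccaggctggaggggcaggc
Itgb7: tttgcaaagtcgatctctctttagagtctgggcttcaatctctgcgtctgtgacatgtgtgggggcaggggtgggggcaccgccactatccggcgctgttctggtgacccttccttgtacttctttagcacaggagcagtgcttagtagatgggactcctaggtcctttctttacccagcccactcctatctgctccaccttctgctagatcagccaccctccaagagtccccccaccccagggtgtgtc
The Lama5 window held the E-box at 2 places, 246 and 186 bases before the start, and the Itga2 and Itgb7 windows held none. Searched on both strands, the E-box was in 8 of the 26 member windows (30.8%), those of Itga3, Itga9, Itga11, Itgb5, Itgb6, Itgb8, Lama5 and Lamb3, against 17.2% of 32851 promoters. The AP-1 motif TGANTCA was in 1 member window (3.85%), that of Itgax, against 6.75% of all promoters. A match is a string of letters and not a measured binding site.

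Each comparison was made with edgeR's quasi-likelihood test over all genes with enough counts, and a gene was called where the Benjamini-Hochberg adjusted p was under 0.1 and the log2 fold change reached 1 in size. In HER2-negative against HER2-positive libraries, 27 members had enough counts, of which 8 were called higher and 6 lower, beside 32.8% of all genes tested that were called (15.8% higher, 17.0% lower). Their median log2 fold change was 0.33, beside -0.04 over all genes tested. Among the 27, the libraries of the groups did not overlap in 10, beside 34.9% of all genes tested. In the other comparisons 29 members were tested. In MamBo38 against MamBo89, 11 were called higher and 10 lower (background 41.9%, with 19.9% higher and 22.0% lower), and in treated against untreated MamBo43, 6 were called higher and 6 lower (background 29.1%, with 13.6% higher and 15.5% lower). In treated MamBo43 against MamBo38, 8 were called higher and 7 lower (background 20.4%, with 10.2% in each direction), and in untreated MamBo43 against untreated MamBo89, 8 were called higher and 4 lower (background 15.5%, with 9.29% higher and 6.19% lower). These comparisons share libraries and are given side by side. All the log2 fold changes below come from these fits, with their standard errors (SE).

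In all, 25 of the 37 members were called in at least 1 comparison. Itga1, Itgav, Itgb1 and Lamc1 were tested and called in none of the 8 comparisons. The other 8 members (Itga4, Itgad, Itgae, Itgal, Itgam, Itgax, Lama2 and Lamc3) were never tested and stayed under 1 CPM in every library, and 7 of them had 5 counts or fewer in every library. Itga4, the α4 chain, had no count in any library, which allows a level of up to 0.112 to 0.179 CPM.

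Each of the 4 laminin α chains tested was called in at least 1 comparison. Lama5, the α chain of the laminin-511 and laminin-521 of epithelial basement membranes, was at 592, 713, 801 and 605 CPM in MamBo89, 938 CPM in untreated MamBo43, 669 and 348 CPM in treated MamBo43 and 12.5, 19.8, 14.2 and 16.4 CPM in MamBo38. The 4 MamBo38 libraries lay far below all others, and the treated MamBo43 libraries lay within or under the HER2-positive range. Lama5 fell in MamBo38 against MamBo89 by 5.43 on the log2 scale (SE 0.26, adjusted p = 6.87e-08, edgeR). It was higher in treated MamBo43 than in MamBo38 by a log2 fold change of 5.01 (SE 0.27, adjusted p = 3.86e-06, edgeR). The pooled HER2 comparison did not call it, at a log2 fold change of -2.02 (SE 1.05, adjusted p = 0.128, edgeR).

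Lama4, the α chain of laminin-411 and laminin-421, known from vessels and mesenchyme, went the other way. It was at 171, 142, 110.8 and 145 CPM in MamBo89, 64.3 CPM in untreated MamBo43, 165 and 268 CPM in treated MamBo43 and 478, 534, 467 and 486 CPM in MamBo38. MamBo38 had the highest levels, and treated MamBo43 overlapped MamBo89. Lama4 was higher in HER2-negative libraries by a log2 fold change of 1.66 (SE 0.34, adjusted p = 0.00178, edgeR), and within MamBo43 it was higher after trastuzumab by 1.76 (SE 0.32, adjusted p = 0.00306, edgeR). Against untreated MamBo89, untreated MamBo43 was lower, at -1.29 (SE 0.32, adjusted p = 0.0341, edgeR). Treated MamBo43 lay under MamBo38 by a log2 fold change of -1.18 (SE 0.22, adjusted p = 0.00327, edgeR), a call that ended without the 30-day treated library, at -0.86.

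Lama1, the α chain of laminin-111, known from embryonic basement membrane, was nearly absent from HER2-positive cells. It had 1 count over the 4 MamBo89 libraries and 0.550 CPM in untreated MamBo43, against 63.0 and 72.6 CPM in treated MamBo43 and 9.53, 3.79, 10.01 and 8.58 CPM in MamBo38. Treated MamBo43 thus exceeded every other library. Its log2 fold change between treated and untreated MamBo43 was 6.94 (SE 0.77, adjusted p = 2.32e-04, edgeR), and treated MamBo43 was above MamBo38 by 3.09 (SE 0.35, adjusted p = 1.74e-04, edgeR). Between untreated MamBo43 and untreated MamBo89 it was called higher in MamBo43 on 14 counts against 1, a ratio of 23.3 (95% exact interval 3.54 to 984, counting error only), and the call ended without MamBo89 replicate 2 (adjusted p = 0.127, edgeR). MamBo38 held 663 counts against 1 in MamBo89, a ratio of 626 with an interval that starts at 112. The 1 count was in the AG3 library, and without it MamBo38 was at least 153-fold higher (3 counts over the group taken as the floor).

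Lama3, the α chain of laminin-332, was at 4.36, 3.22, 2.16 and 1.43 CPM in MamBo89, 44.8 CPM in untreated MamBo43, 6.42 and 12.7 CPM in treated MamBo43 and 12.3, 58.0, 10.2 and 11.2 CPM in MamBo38. The untreated MamBo43 library and MamBo38 replicate 2 were high, and the remaining tumor B libraries lay close together above MamBo89. It was called higher in MamBo38 than in MamBo89, with a log2 fold change of 3.03 (SE 0.64, adjusted p = 0.00193, edgeR), and higher in untreated MamBo43 than in untreated MamBo89, with 3.55 (SE 0.75, adjusted p = 0.0183, edgeR). Without MamBo38 replicate 2 the first of these was 2.004 and was still called. Treated and untreated MamBo43 differed by -2.22 (SE 0.97, adjusted p = 0.106, edgeR), which was not called. It was called lower by DESeq2, and by edgeR without MamBo38 replicate 2.

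Among the β chains, Lamb1 and Lamb3 moved in opposite directions. Lamb1, the common partner in laminins of mesenchyme and embryo, was at 193, 182, 167 and 94.7 CPM in MamBo89, 509 CPM in untreated MamBo43, 1312 and 1684 CPM in treated MamBo43 and 1389, 1401, 1416 and 1353 CPM in MamBo38. The 6 HER2-negative libraries lay above the 5 HER2-positive ones with no overlap, and the log2 fold change was 2.64 (SE 0.37, adjusted p = 1.74e-04, edgeR). Within MamBo43 it rose by 1.56 (SE 0.38, adjusted p = 0.0117, edgeR), and treated MamBo43 and MamBo38 differed by 0.11 (SE 0.25, adjusted p = 0.783, edgeR). Untreated MamBo43 was above untreated MamBo89 by 1.43 (SE 0.31, adjusted p = 0.0214, edgeR).

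Lamb3, the β chain of laminin-332, was at 691, 750, 710 and 466 CPM in MamBo89, 847 CPM in untreated MamBo43, 450 and 129 CPM in treated MamBo43 and 0.818, 1.45, 1.01 and 1.16 CPM in MamBo38. It fell by 9.19 on the log2 scale in MamBo38 against MamBo89 (SE 0.48, adjusted p = 1.14e-07, edgeR), while treated MamBo43 was above MamBo38 by 8.02 (SE 0.47, adjusted p = 5.49e-06, edgeR). The drop within MamBo43, of -1.54 (SE 0.53, adjusted p = 0.0504, edgeR), was not called without the 60-day library, at -0.91, and was -2.73 without the 30-day one. Against MamBo38 the same removals gave 8.66 and 6.87. In the pooled HER2 comparison Lamb3 was not called, at -2.83 (SE 1.53, adjusted p = 0.14, edgeR), but it was called lower without the 30-day treated MamBo43 library.

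Lamb2, the β chain of laminin-521 and laminin-421, varied little within each line. It was at 82.8, 106, 98.5 and 82.1 CPM in MamBo89, 288 CPM in untreated MamBo43, 263 and 246 CPM in treated MamBo43 and 125, 134, 129 and 124 CPM in MamBo38. The 3 MamBo43 libraries were the highest, and untreated MamBo43 was above untreated MamBo89 by 1.61 (SE 0.20, adjusted p = 0.00196, edgeR).

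The γ1 chain gene Lamc1, which most laminins share, was high in all libraries, from 457 to 1317 CPM, and was called in none of the 8 comparisons. In treated MamBo43 against MamBo38 it was called when the 60-day library was left out or library code was a covariate.

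**Figure D1:**
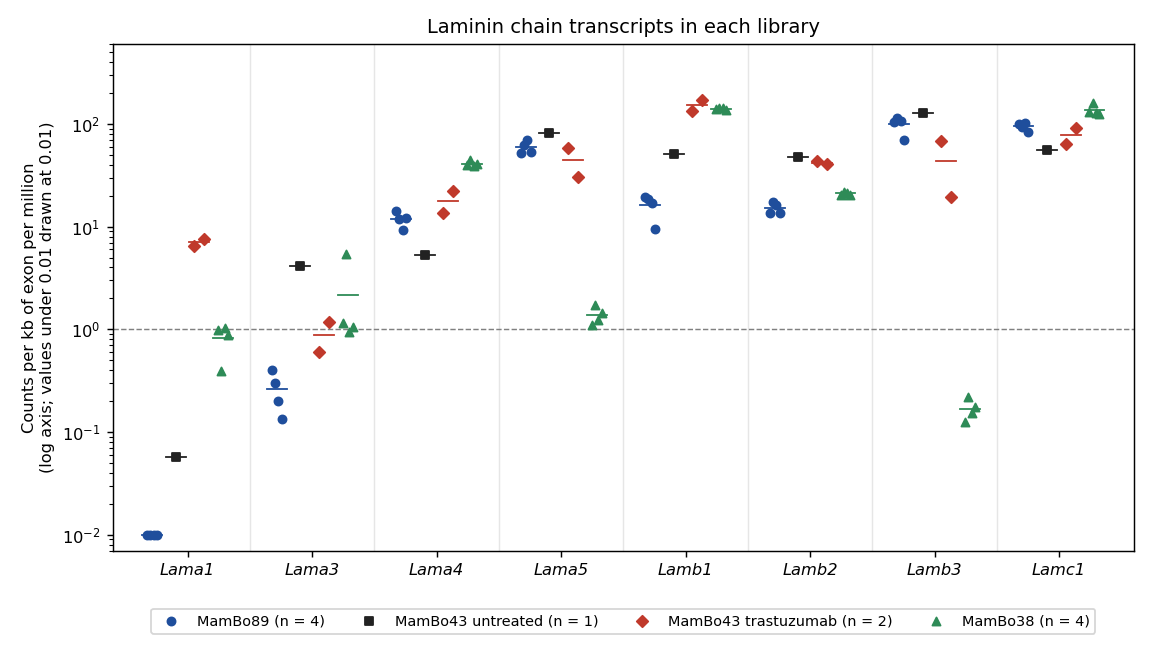
Levels of 8 laminin chains in each of the 11 libraries, in counts per kilobase of exon per 1000000 on a log axis, with points for libraries and a bar for each group mean. Lamb3 in MamBo38 lies near 0.1 to 0.2, far under the dashed line at 1, while Lamb1 in the HER2-negative groups lies above 100.

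Levels of different chains were compared per length, as counts per kilobase of merged exon per 1000000 (GENCODE M21, GRCm38), and a trimer was counted in a line where every library of that line had all 3 chains at 1 or more on that scale. Of 13 trimers, 4 were counted in MamBo89 and in MamBo38 (laminin-411, laminin-421, laminin-511 and laminin-521), 6 in untreated MamBo43 (the same and laminin-311 and laminin-321) and 6 in treated MamBo43 (the 4 and laminin-111 and laminin-121). The leading chains differed behind the equal counts of MamBo89 and MamBo38. In MamBo89 the mean α chain levels per length were 59.5 for Lama5 and 11.8 for Lama4, and in MamBo38 they were 1.38 and 40.7. In MamBo38 Lama5 ran from 1.09 to 1.74, close to the level that counts, and at a level of 2 the laminin-511 and laminin-521 no longer counted there.

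Lama3 and Lamb3, both chains of laminin-332, were out of step in MamBo89 and in MamBo38. MamBo89 had Lamb3 at a mean of 98.9 per length but Lama3 at 0.26, with a range of 0.13 to 0.41. MamBo38 had Lama3 at a mean of 2.13 but Lamb3 at 0.17. The Lama3 mean was carried by replicate 2, at 5.40, with the other MamBo38 libraries at 0.95 to 1.15. Only replicate 3, at 0.95, kept laminin-311 and laminin-321 from being counted in MamBo38. Untreated MamBo43, a single library, had Lama3 at 4.17 and Lamb3 at 128. In treated MamBo43 Lama3 was at 0.60 and 1.18, on either side of the level. Lama1 carried the laminin-111 count of treated MamBo43, at 6.51 to 7.50 per length, and it ran from 0.39 to 1.03 in MamBo38.

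Of the laminin receptor chains, Itga6, Itgb4 and Itga3 were called lower in HER2-negative libraries, and Itga7 and Itgb1 were not called. Itga6, the α chain of α6β1 and α6β4, was at 443, 527, 539 and 524 CPM in MamBo89, 271 CPM in untreated MamBo43, 132 and 71.8 CPM in treated MamBo43 and 136, 215, 120 and 129 CPM in MamBo38. Every HER2-negative library lay below every HER2-positive library, and the log2 fold change was -1.78 (SE 0.26, adjusted p = 2.15e-04, edgeR). Itgb4, its hemidesmosomal partner, was at 471, 537, 448 and 391 CPM in MamBo89, 263 CPM in untreated MamBo43, 64.2 and 37.5 CPM in treated MamBo43 and 188, 208, 169 and 168 CPM in MamBo38. Here also the groups did not overlap, and the log2 fold change was -1.60 (SE 0.40, adjusted p = 0.00632, edgeR). With the tumor as a covariate the Itgb4 call was lost, at -0.92 (adjusted p = 0.322, edgeR). Treated MamBo43 had less Itgb4 than MamBo38, by -1.85 (SE 0.23, adjusted p = 3.41e-04, edgeR).

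Itga3, the α chain of α3β1, the main receptor of laminin-332 and laminin-511, was at 157, 395, 344 and 275 CPM in MamBo89, 576 CPM in untreated MamBo43, 393 and 136 CPM in treated MamBo43 and 33.8, 42.7, 35.1 and 34.99 CPM in MamBo38. Only MamBo38 lay apart from the rest, by -2.99 against MamBo89 (SE 0.36, adjusted p = 3.69e-05, edgeR), and treated MamBo43 was above MamBo38 by 2.85 (SE 0.39, adjusted p = 6.23e-04, edgeR), or by 1.91 without the 30-day library. The pooled HER2 call, at -1.63 (SE 0.70, adjusted p = 0.0692, edgeR), was lost without any of the 4 MamBo38 libraries, without untreated MamBo43 or without MamBo89 replicates 2 or 3 (adjusted p = 0.105 to 0.133, edgeR), and it was -2.62 without the 30-day treated MamBo43 library. It was also lost with the tumor as a covariate (-2.35, adjusted p = 0.122, edgeR), with library code as a covariate (-0.87, adjusted p = 0.262, edgeR) and within the libraries of one code (-0.86, adjusted p = 0.347, edgeR).

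Itga7, the α chain of α7β1, a receptor best known from muscle, was at 2.08, 5.02, 4.43 and 7.77 CPM in MamBo89, 24.3 CPM in untreated MamBo43, 7.30 and 6.57 CPM in treated MamBo43 and 20.3, 13.3, 20.6 and 20.0 CPM in MamBo38. Untreated MamBo43 and MamBo38 were high. Untreated MamBo43 was above untreated MamBo89 by 2.76 (SE 0.50, adjusted p = 0.0103, edgeR), or by 3.53 without MamBo89 replicate 2, and treated MamBo43 was below untreated by -1.80 (SE 0.53, adjusted p = 0.0272, edgeR), which was not called without the 60-day library (adjusted p = 0.117, edgeR). MamBo38 was above MamBo89 by 1.95 (SE 0.34, adjusted p = 4.93e-04, edgeR).

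Itgb1, the β chain shared by most of these pairs, was even across the libraries, from 719 to 1208 CPM, and with Itgav, at 88.0 to 144 CPM, it passed no call. Its log2 fold change between HER2-negative and HER2-positive libraries was -0.32 (SE 0.12, adjusted p = 0.0482, edgeR), under the size required.

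Of the collagen receptor chains, Itga2 was high in MamBo89 alone and Itga11 was highest in treated MamBo43. Itga2, the α chain of the epithelial and platelet collagen receptor α2β1, was at 33.5, 29.6, 30.4 and 26.4 CPM in MamBo89, 1.26 CPM in untreated MamBo43, 1.62 and 0.917 CPM in treated MamBo43 and 0.385, 0.892, 0.238 and 0.225 CPM in MamBo38. The split ran between the tumors and not between HER2 groups, since untreated MamBo43 lay with the HER2-negative libraries. The pooled HER2 log2 fold change was -5.08 (SE 0.80, adjusted p = 3.39e-04, edgeR), but with the tumor as a covariate it was -0.81 and was not called (adjusted p = 0.471, edgeR). Untreated MamBo43 was below untreated MamBo89 by -4.65 (SE 0.56, adjusted p = 0.00151, edgeR). Itga2 was also called between treated MamBo43 and MamBo38, at 1.55 (SE 0.46, adjusted p = 0.029, edgeR), a call lost without the 30-day treated library or with library code as a covariate. Its neighbour Itga1, 20996 bases away on chromosome 13, was at 4.05 to 17.6 CPM and was called in none of the 8 comparisons, but it was called in treated MamBo43 against MamBo38 when MamBo38 replicate 2, the 30-day treated library or the AG3 library was left out.

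Itga11, the α chain of α11β1, a receptor of fibroblasts, was at 0, 0.184, 0.117 and 0.551 CPM in MamBo89, 0.668 CPM in untreated MamBo43, 28.6 and 35.7 CPM in treated MamBo43 and 6.45, 3.63, 6.14 and 4.42 CPM in MamBo38. The 6 HER2-negative libraries lay above the others without overlap, by 5.50 (SE 1.02, adjusted p = 0.00100, edgeR). With the tumor as a covariate this became 4.40 and was not called (adjusted p = 0.115, edgeR). It rose within MamBo43 by 5.58 (SE 1.03, adjusted p = 0.00321, edgeR), and treated MamBo43 was above MamBo38 by 2.64 (SE 0.51, adjusted p = 0.0038, edgeR).

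Itga10, the α chain of α10β1, known from cartilage, was at 0.679, 3.64, 3.62 and 5.78 CPM in MamBo89, 6.64 CPM in untreated MamBo43, 10.6 and 5.04 CPM in treated MamBo43 and 13.4, 8.42, 15.4 and 16.5 CPM in MamBo38. It was called higher in HER2-negative libraries, at 1.51 (SE 0.50, adjusted p = 0.0254, edgeR), and in MamBo38 against MamBo89, at 1.98 (SE 0.51, adjusted p = 0.00629, edgeR). The first call was lost with the tumor or library code as a covariate, and the second with library code. In the annotation 29.0% of Itga10 read windows were shared with a second gene model, Gm42957, so its count is uncertain.

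Among the RGD receptor chains, Itga5 and Itgb3 moved oppositely. Itga5, the α chain of the fibronectin receptor α5β1, was at 11.8, 18.0, 16.6 and 9.36 CPM in MamBo89, 16.5 CPM in untreated MamBo43, 118 and 166 CPM in treated MamBo43 and 405, 626, 408 and 380 CPM in MamBo38. The 6 HER2-negative libraries stood clear of the 5 others, by a log2 fold change of 4.60 (SE 0.45, adjusted p = 1.87e-05, edgeR). Within MamBo43 the rise was 3.12 (SE 0.48, adjusted p = 0.00124, edgeR), and treated MamBo43 stayed below MamBo38 by -1.68 (SE 0.31, adjusted p = 0.00304, edgeR).

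Itgb3, the β chain of the vitronectin receptor αvβ3, was at 144, 129, 80.7 and 193 CPM in MamBo89, 113 CPM in untreated MamBo43, 5.98 and 5.12 CPM in treated MamBo43 and 4.91, 4.41, 5.24 and 5.25 CPM in MamBo38. All HER2-negative libraries were under 6 CPM, and the log2 fold change was -4.68 (SE 0.21, adjusted p = 3.50e-07, edgeR). Treated and untreated MamBo43 differed by -4.35 (SE 0.38, adjusted p = 7.80e-05, edgeR), and treated MamBo43 and MamBo38 by 0.16 (SE 0.29, adjusted p = 0.715, edgeR).

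Itga8, the α chain of α8β1, a receptor of nephronectin and fibronectin, was at 491, 1208, 1323 and 816 CPM in MamBo89, 184 CPM in untreated MamBo43, 13.8 and 43.2 CPM in treated MamBo43 and 21.4, 46.3, 24.4 and 37.6 CPM in MamBo38. It was the member with the highest α chain level per length in MamBo89, at 130, against 4.40 in MamBo38. The HER2 groups did not overlap, with a log2 fold change of -4.69 (SE 0.53, adjusted p = 3.93e-05, edgeR), and within MamBo43 the change was -2.68 (SE 0.68, adjusted p = 0.0136, edgeR), or -3.73 without the 60-day library.

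Itgb5, the β chain of αvβ5, was at 61.6, 99.9, 83.5 and 101 CPM in MamBo89, 402 CPM in untreated MamBo43, 306 and 293 CPM in treated MamBo43 and 214, 185, 225 and 220 CPM in MamBo38. All tumor B libraries exceeded all MamBo89 libraries. It was called in untreated MamBo43 against untreated MamBo89, at 2.31 (SE 0.27, adjusted p = 0.0013, edgeR), and in MamBo38 against MamBo89, at 1.29 (SE 0.16, adjusted p = 4.08e-05, edgeR).

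Itgb6, the epithelial β chain of αvβ6, an activator of TGF-β, was at 0.339, 0.322, 0.0583 and 0.110 CPM in MamBo89, 20.5 CPM in untreated MamBo43, 9.46 and 2.71 CPM in treated MamBo43 and 0, 0.0558, 0.119 and 0 CPM in MamBo38. Only the MamBo43 libraries exceeded 1 CPM. MamBo38 held 3 counts in all against 264 in treated MamBo43, a ratio of 155 (95% exact interval 52.5 to 758, counting error only). Of these, 2 counts were in MamBo38 replicate 3 and 193 in the 30-day library, and the ratio was 371 without the first and 74.3 without the second. It was above untreated MamBo89 in untreated MamBo43 by 5.92 (SE 0.93, adjusted p = 0.00531, edgeR), or by 6.54 against all MamBo89 libraries. The call of MamBo38 below MamBo89 rested on 3 counts against 17, a ratio of 5.998 (1.74 to 31.9), which was 14.3 without MamBo38 replicate 3. The call ended without MamBo38 replicates 1 or 4 or MamBo89 replicates 1 or 2, and with library code as a covariate. Itgb6 was not tested between the HER2 groups, because too few libraries held enough counts.

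Itgb8, the β chain of αvβ8, was at 34.2, 18.0, 19.8 and 13.5 CPM in MamBo89, 58.6 CPM in untreated MamBo43, 31.2 and 30.3 CPM in treated MamBo43 and 38.8, 43.8, 31.8 and 41.2 CPM in MamBo38. Of the 8 comparisons it was called in untreated MamBo43 against untreated MamBo89, at 1.16 (SE 0.37, adjusted p = 0.0767, edgeR), and the call ended without any of the 4 MamBo38 libraries, the 60-day treated MamBo43 library or MamBo89 replicate 2 (adjusted p = 0.102 to 0.116, edgeR), while without the AG3 library it was 1.75. In MamBo38 against MamBo89 it was called when the AG3 library was left out or library code was a covariate.

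Itga9, the α chain of α9β1, a receptor of tenascin-C, was at 23.1, 58.3, 62.6 and 54.0 CPM in MamBo89 and at 0.167 CPM or less in each of the other 7 libraries. It was thus a transcript of MamBo89. MamBo38 held 3 counts against 3796 in MamBo89, a ratio of 1339 (95% exact interval 458 to 6497, counting error only), with adjusted p = 4.71e-07 (edgeR). All 3 counts were in MamBo38 replicate 2, and without it MamBo89 was at least 1047-fold higher, with 3 counts over the group as the floor. Untreated MamBo43 held 3 counts against 1742 in untreated MamBo89, a ratio of 349 (119 to 1695), with adjusted p = 0.00290 (edgeR), and the ratio was 196 without MamBo89 replicate 2. It was not tested between the HER2 groups because fewer than 5 libraries held enough counts.

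Itga2b, the α chain of the platelet integrin αIIbβ3, was at 3.05, 10.7, 6.65 and 13.7 CPM in MamBo89, 1.296 CPM in untreated MamBo43, 1.27 and 1.49 CPM in treated MamBo43 and 5.82, 4.41, 5.84 and 5.96 CPM in MamBo38. It was lower in treated MamBo43 than in MamBo38, by -1.99 (SE 0.53, adjusted p = 0.0186, edgeR), a call lost with library code as a covariate or without the 30-day library, and lower in untreated MamBo43 than in untreated MamBo89, by -2.41 (SE 0.80, adjusted p = 0.0863, edgeR), a call lost without any single library other than MamBo89 replicate 1 (adjusted p = 0.1002 to 0.150, edgeR) and at -1.24 without MamBo89 replicate 2. The platelet markers Pf4, Gp9, Gp1bb and Ppbp summed to at most 2.02 CPM in any library.

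The β chains of leukocyte integrins were present in MamBo38. Itgb7, which pairs with α4 and αE on lymphocytes, was at 152, 108, 135 and 103 CPM in MamBo38, 2.60 and 5.46 CPM in treated MamBo43, 0.118 CPM in untreated MamBo43 and 0.0485, 0.921, 0.642 and 0.716 CPM in MamBo89. The 6 HER2-negative libraries lay above the 5 others, by 7.44 (SE 1.26, adjusted p = 5.76e-04, edgeR). Within MamBo43 it was called higher after trastuzumab, on 196 counts in 2 libraries against 3, a ratio of 35.7 (95% exact interval 12.0 to 175, counting error only), with adjusted p = 0.00592 (edgeR). Treated MamBo43 lay under MamBo38 by -4.93 (SE 0.54, adjusted p = 1.55e-04, edgeR). Without the 60-day treated library these differences were 4.40 and -5.58.

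Itgb2, the common β chain of leukocyte integrins, was at 13.1, 12.9, 15.1 and 14.5 CPM in MamBo38 and at 0.0551 to 1.26 CPM in the other 7 libraries. It was called higher in HER2-negative libraries, at 3.76 (SE 0.98, adjusted p = 0.00789, edgeR), although treated MamBo43, at 0.686 and 0.764 CPM, lay within the MamBo89 range. With the tumor as a covariate this became 3.91 and was not called (adjusted p = 0.197, edgeR). MamBo38 was above MamBo89 by 4.28 (SE 0.58, adjusted p = 9.31e-05, edgeR) and treated MamBo43 lay below MamBo38 by -4.25 (SE 0.78, adjusted p = 0.00295, edgeR). The known α partners of β2 and β7 (Itgal, Itgam, Itgax, Itgad, Itga4 and Itgae) stayed at 0.052 or less per length in MamBo38. Of the leukocyte markers, Cd68 summed with the rest to 26.8 to 49.9 CPM in MamBo38, 3.73 to 4.47 CPM in treated MamBo43, 1.02 CPM in untreated MamBo43 and 6.98 to 16.7 CPM in MamBo89, while the other 4 of the 5 (Ptprc, Adgre1, Cd3e and Csf1r) had 3 counts or fewer in every library.

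**Figure D2:**
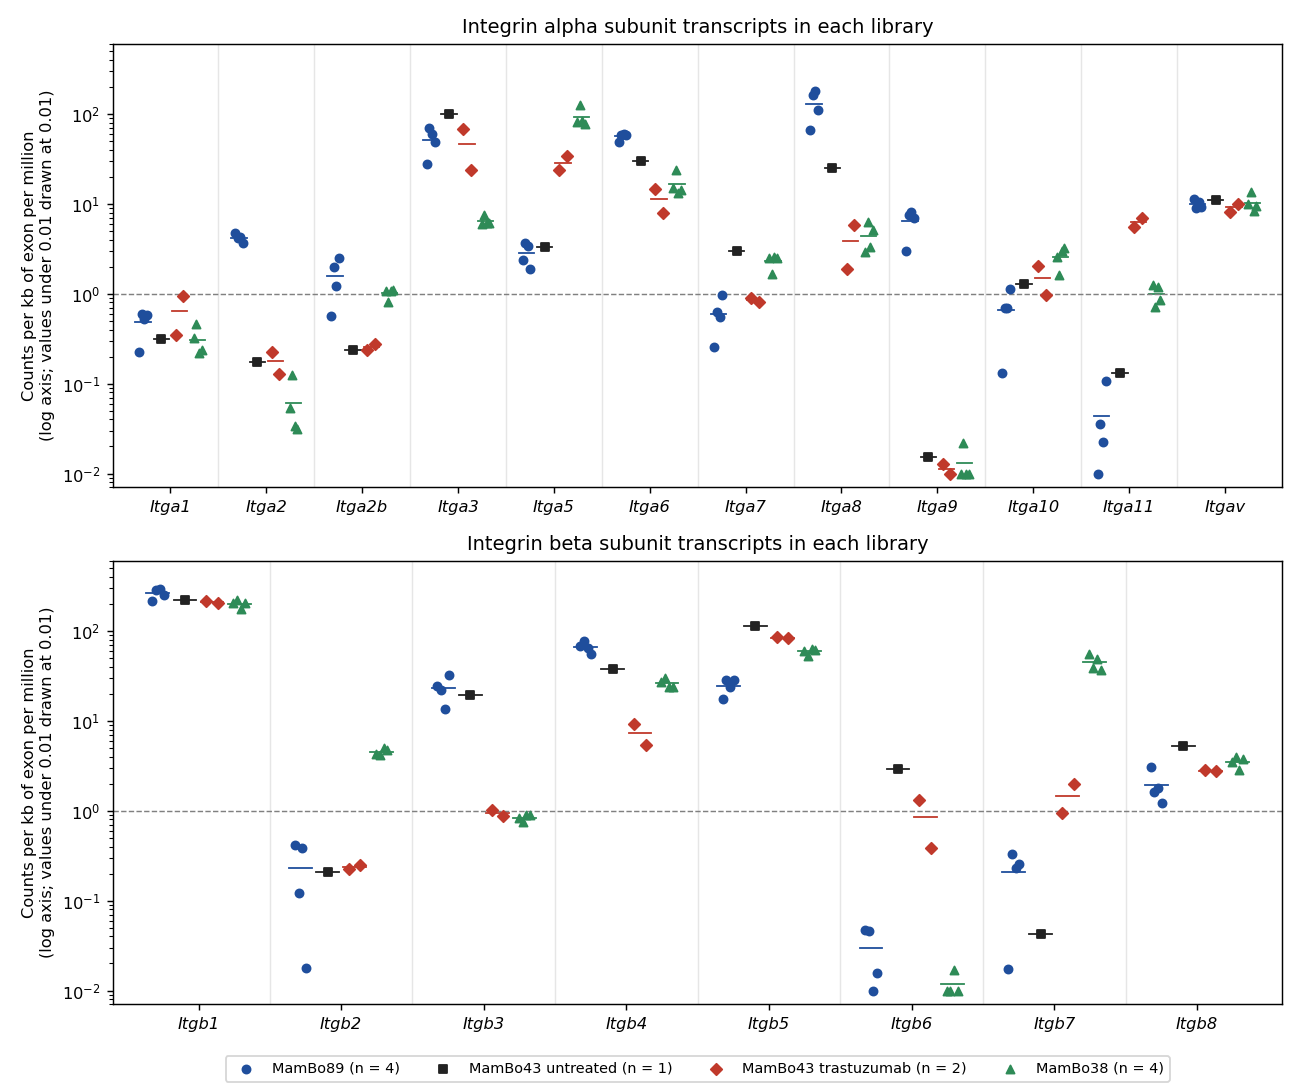
Levels of the 12 tested integrin α chains (upper panel) and 8 β chains (lower panel) in each library, in counts per kilobase of exon per 1000000 on a log axis, with bars for group means. Itgb1 lies near 200 in all groups, Itga5 and Itgb7 are highest in MamBo38, and Itgb3 falls to about 1 in both HER2-negative groups.

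An integrin pair was counted in a line where every library had both chains at 1 or more per length. Of 24 pairs, 11 were counted in MamBo89, 12 in untreated MamBo43, 9 in treated MamBo43 and 10 in MamBo38. The pairs counted in all 4 groups were α3β1, α6β1, α6β4, α5β1, α8β1, αvβ1, αvβ5 and αvβ8. To these MamBo89 added α2β1, αvβ3 and α9β1, and untreated MamBo43 added α7β1, α10β1, αvβ3 and αvβ6. Treated MamBo43 added α11β1 alone, and MamBo38 added α7β1 and α10β1. The pair αvβ3 was thus counted in both HER2-positive groups and in neither HER2-negative group, where Itgb3 was at 0.75 to 1.01 per length, near the level. In MamBo89 Itga10 reached 1.12 per length in 1 library, and in treated MamBo43 Itga10 lay at 0.97 and 2.05, so that these pairs were close to the level. The lowest subunit set each count, and for the shared pairs its range shifted, with α5β1 at 1.90 to 3.65 in MamBo89 and 77.1 to 127 in MamBo38, and α8β1 at 66.6 to 180 in MamBo89 and 2.90 to 6.29 in MamBo38.

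**Figure D3:**
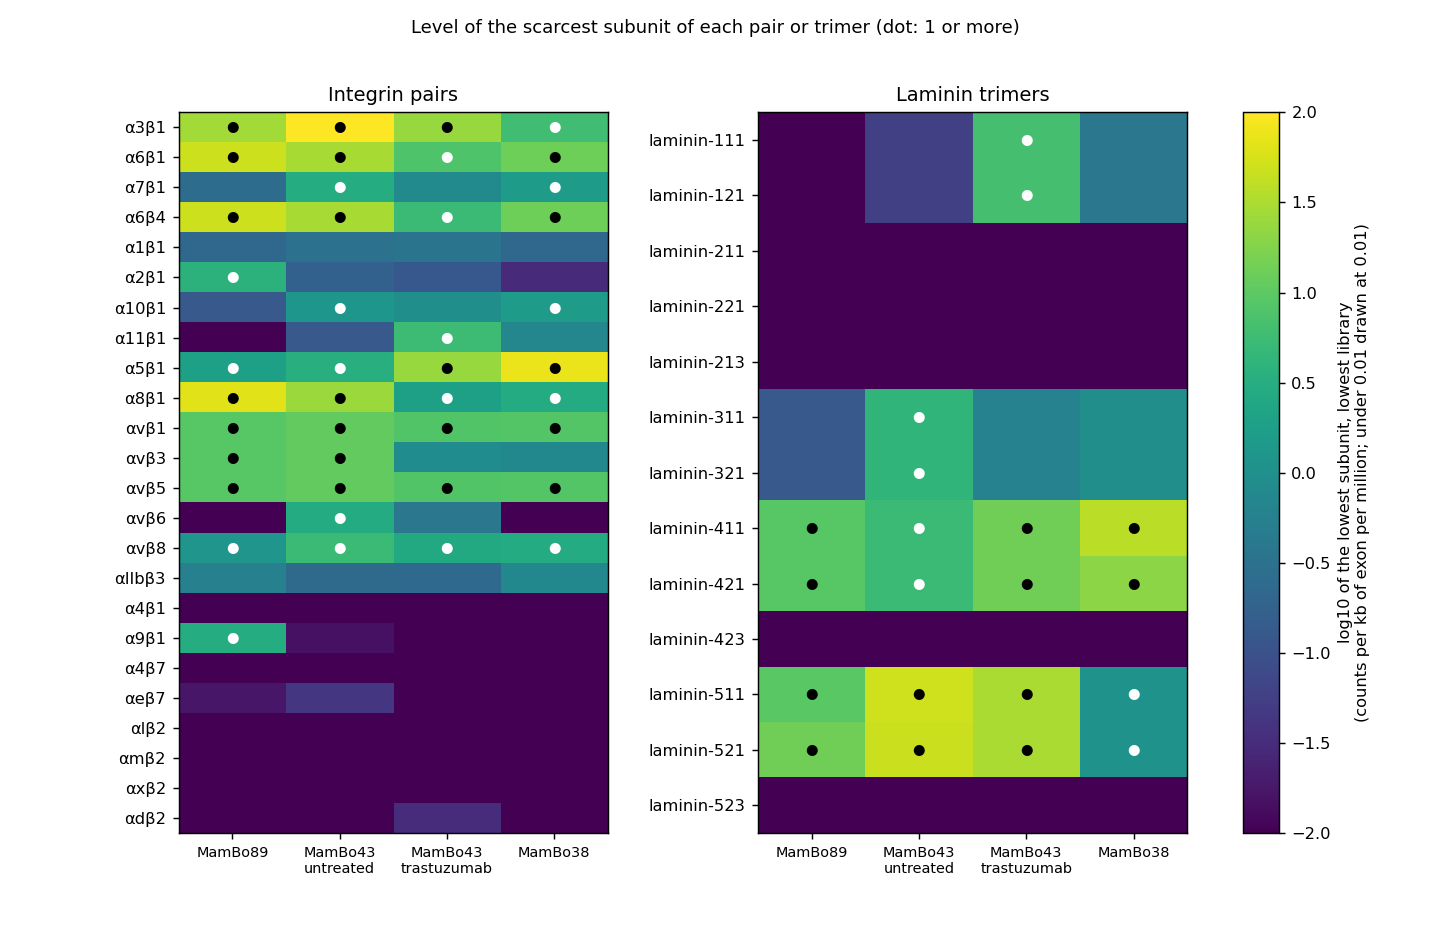
Level of the scarcest subunit of each of 24 integrin pairs (left) and 13 laminin trimers (right), taken in the lowest library of each group, as log10 of counts per kilobase of exon per 1000000. A dot marks a level of 1 or more. Laminin-311 has a dot in untreated MamBo43 alone and laminin-111 in treated MamBo43 alone.

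Combining both families, MamBo89 carried the chains of laminin-511 and laminin-521 together with those of α3β1, α6β1 and α6β4, each at 27.5 or more per length for Itga3, Itga6 and Itgb4. MamBo38 carried laminin-411 chains at 38.7 or more per length, with Itga3 at 5.92 to 7.47, Itga6 at 13.3 to 23.8 and Itgb4 at 23.9 to 29.7. Treated MamBo43 had Lama5 at 30.5 and 58.7 beside Lama1 at 6.51 and 7.50, with Itgb4 at 5.35 to 9.15, the lowest of the 4 groups.

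The change within MamBo43 was then set beside that between the lines. Trastuzumab within MamBo89 (2 treated against 2 untreated libraries) and within MamBo38 (2 against 2) called no member. Of all genes tested by edgeR it called 0.00%. The 2 untreated libraries were unlike each other, with chi-square per degree of freedom of 175 in MamBo89 and 54.7 in MamBo38. An absence of calls here therefore does not show an absence of effect. At an unadjusted p under 0.05, edgeR found 1 member in MamBo89 and 2 in MamBo38 (Itga2 and Lama3). Both MamBo38 genes were highest in untreated replicate 2, Lama3 at 58.0 CPM (others 10.2 to 12.3) and Itga2 at 0.892 CPM (others 0.225 to 0.385). That library does not share the code of the other MamBo38 libraries, so code and treatment are partly mixed in this comparison. DESeq2 called 0 members in each line. In MamBo89 the count was 8 (6 higher, 2 lower, beside 2148 of 13699 genes) when replicate 2 was left out, so that the treated libraries met the AG3 library alone. The effect of trastuzumab in MamBo43 minus that in MamBo89 was called for 10 members, 5 in each direction (background 22.2%, with 11.1% higher and 11.2% lower). Itga5 differed by 3.33 (SE 0.58, adjusted p = 0.0109, edgeR), Lamb1 by 2.09 (SE 0.44, adjusted p = 0.0194, edgeR) and Lama4 by 2.06 (SE 0.41, adjusted p = 0.0164, edgeR), where each gene was higher after trastuzumab in MamBo43 and had a log2 fold change of -0.21, -0.53 and -0.30 in MamBo89, none of them called. Itgb3 differed by -4.34 (SE 0.53, adjusted p = 0.00387, edgeR), or by -3.58 without the 60-day MamBo89 library, and Itgb4 by -2.09 (SE 0.37, adjusted p = 0.0121, edgeR). These 5 kept their calls under all alternatives tried, and Itga6, Itga7, Itga8, Itgb7 and Lama1 did not. The Itgb7 difference of 4.59 was 1.41 without MamBo89 replicate 2 and was then not called. The untreated MamBo43 arm is 1 library, and its spread was taken from the other groups.

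**Figure D4:**
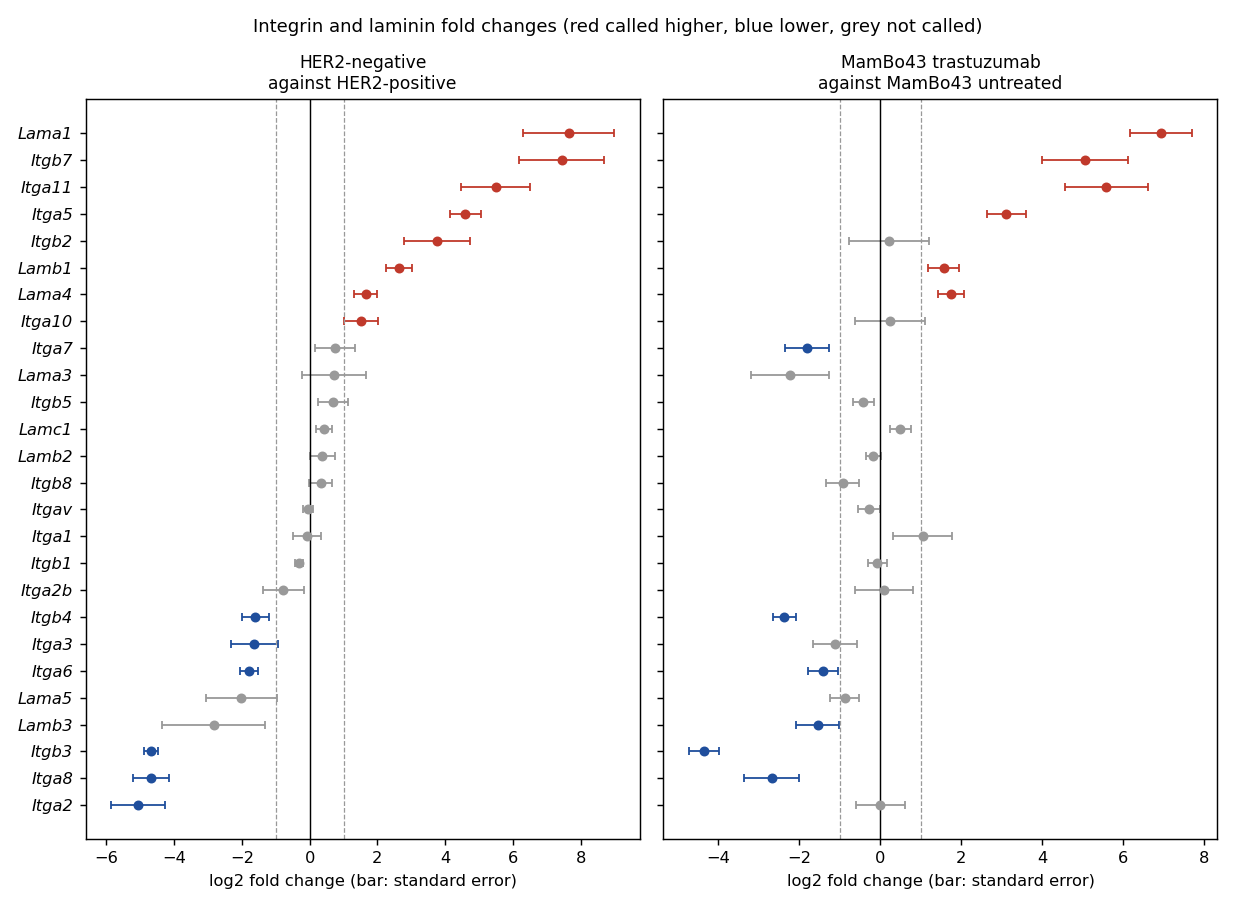
Log2 fold changes with standard errors of 26 of the 27 members tested between HER2-negative and HER2-positive libraries (left) and of the same members between treated and untreated MamBo43 (right), on linear log2 axes with dashed lines at -1 and 1. Red marks members called higher, blue lower and grey not called. Lama1, Itgb7, Itga11, Itga5, Lamb1 and Lama4 are red in both panels, and Itgb3, Itga8, Itga6 and Itgb4 are blue in both.

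With the tumor as a covariate in the HER2 comparison, 9 members of 27 were called, 6 higher and 3 lower, beside 26.5% of all genes tested in that fit. Lama1 stood at 5.65, Itgb7 at 9.41, Lama4 at 2.64, Lamb1 at 1.49, Itga8 at -2.56 and Itga6 at -1.01 on the log2 scale, and these 6 kept their calls with Itga5 and Itgb3. The calls of Itga2, Itga3, Itga10, Itga11, Itgb2 and Itgb4 were lost, and Lamc1 was called. MamBo89 is the whole of tumor A and has no HER2-negative library, so this fit takes its contrast within tumor B, where untreated MamBo43 is the single HER2-positive library.

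Library code as a covariate moved several called values by more than 1.5 times without ending the call. In the HER2 comparison Itgb2 went from 3.76 to 2.77, Itgb7 from 7.44 to 6.32 and Itga2 from -5.08 to -4.40 on the log2 scale. Itga11 went from 5.50 to 6.17 and Lama1 from 7.65 to 8.37. With no covariate but untreated MamBo43 left out, the Lama1 value was 10.53. In MamBo38 against MamBo89 Lama3 went from 3.03 to 4.37 and Itga2 from -6.12 to -5.06. In treated MamBo43 against MamBo38 Lama1 went from 3.09 to 4.16. In these fits MamBo38 replicate 2 is the single MamBo38 library that shares its code with the other lines.

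Lamb3, Lama5 and Itga3 of treated MamBo43 lay between untreated MamBo43 and MamBo38, and the luminal markers Cdh1 and Epcam are given beside them. Lamb3 was at 450 and 129 CPM, Lama5 at 669 and 348 CPM and Itga3 at 393 and 136 CPM in its 2 libraries, beside Cdh1 at 201 and 71.8 CPM and Epcam at 159 and 30.6 CPM. In each of these genes the 60-day library was lower. Other members did not share this order, since both treated libraries lay below MamBo38 in Itgb4, the 60-day library did so in Itga6, and Itga8 was higher in the 60-day library than in the 30-day one. The part of any remaining polygonal cells in these values was not tested, and fewer cells with a transcript cannot be told apart from less of it per cell. The basal or myoepithelial markers (Krt5, Krt14, Trp63, Acta2, Oxtr) summed to 113 and 621 CPM in treated MamBo43, mostly from Acta2 (69.2 and 465 CPM), against 8.20 to 37.5 CPM in the other libraries, and their part was not tested. The endothelial markers summed to at most 0.892 CPM in any library.

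Genes that work with these subunits were read from fixed lists, in HER2-negative against HER2-positive libraries, beside the 32.8% of all genes called and the median of -0.04. Of 27 tested cytoplasmic integrin adaptors, 10 were called higher and 3 lower, with a median log2 fold change of 0.30. Parvb, an actin-binding parvin, was at 215 ± 98.0 CPM (SD, n = 6) against 0.311 ± 0.659 CPM (SD, n = 5). Parvg, a parvin of blood cells, was higher by 5.21 (SE 0.96, adjusted p = 9.67e-04, edgeR), and the tensin Tns1 by 3.57 (SE 0.62, adjusted p = 6.94e-04, edgeR). Tns4, an epithelial tensin, was lower by -4.20 (SE 1.16, adjusted p = 0.0106, edgeR), Fermt1, the epithelial kindlin, by -3.43 (SE 1.48, adjusted p = 0.0706, edgeR), and the actin cross-linker Actn4 by -1.27 (SE 0.29, adjusted p = 0.00398, edgeR).

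Of 3 hemidesmosome partners tested, 1 was called. Plec, which ties α6β4 to keratin filaments, was higher in HER2-negative libraries by 1.61 (SE 0.23, adjusted p = 1.65e-04, edgeR), against the direction of Itgb4. Of 6 other laminin receptors, 0 were higher and 3 lower, with a median of -1.47. Dag1, the dystroglycan precursor, fell by 2.14 on the log2 scale (SE 0.13, adjusted p = 1.14e-06, edgeR), from 783 ± 83.8 CPM (SD, n = 5) to 177 ± 25.2 CPM (SD, n = 6). The syndecans Sdc4 and Sdc1 were lower by -1.81 (SE 0.18, adjusted p = 1.70e-05, edgeR) and -1.13 (SE 0.22, adjusted p = 0.00127, edgeR).

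Of 13 tested basement membrane partners, 8 were called higher and 2 lower, with a median of 1.48. Nid1, a nidogen that links laminin to collagen IV, was at 396 ± 255 CPM (SD, n = 6) against 1.15 ± 1.96 CPM (SD, n = 5), and Nid2 was higher by 6.07 (SE 1.24, adjusted p = 0.00186, edgeR). Col4a4, a collagen IV chain, was higher by 3.18 (SE 0.76, adjusted p = 0.00480, edgeR). In MamBo38 replicate 2 it was at 0.446 CPM, within the HER2-positive range of 0.145 to 0.864 CPM. Agrn, the proteoglycan agrin, and Pxdn, the peroxidase that cross-links collagen IV, were lower by -1.57 (SE 0.41, adjusted p = 0.00786, edgeR) and -1.26 (SE 0.33, adjusted p = 0.00863, edgeR).

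Of 16 tested integrin ligands, 5 were called higher and 3 lower, with a median of -0.34. Fn1, the fibronectin bound by α5β1, was at 27248 ± 8477 CPM (SD, n = 6) against 874 ± 815 CPM (SD, n = 5), a log2 fold change of 4.96 (SE 0.68, adjusted p = 1.43e-04, edgeR), and its groups did not overlap. Vcam1, a ligand of α4 integrins, and the microfibril gene Fbn1 were higher by 8.04 (SE 0.92, adjusted p = 4.43e-05, edgeR) and 4.61 (SE 0.61, adjusted p = 1.17e-04, edgeR). Npnt, the nephronectin bound by α8β1, was lower by -2.90 (SE 0.85, adjusted p = 0.0144, edgeR). It was at 15.5 to 46.8 CPM in MamBo89, but untreated MamBo43, at 0.746 CPM, lay with the HER2-negative libraries (0.649 to 5.41 CPM). The split thus ran between the tumors. Mfge8, a secreted RGD protein of milk fat globules, was lower by -3.19 (SE 0.25, adjusted p = 4.71e-06, edgeR), and Tgfb3 by -3.54 (SE 0.36, adjusted p = 2.17e-05, edgeR). Within MamBo43, the calls higher and lower after trastuzumab were 12 and 2 of 28 adaptors, 5 and 3 of 14 basement membrane partners, and 5 and 5 of 18 ligands, beside 13.6% higher and 15.5% lower over all genes tested in that comparison.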

How the data were processed

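Total RNA of 11 cultures was sequenced by the authors from TruSeq v2 libraries, a kit that does not mark strand, in single reads of 75 nucleotides. The submitters' processing notes name bcl2fastq, STAR 2.5, RSEM 1.3.0 and the build mm10. The deposited values are expected counts per gene, made by the authors with RSEM, not normalized and all whole numbers. The annotation and any filter the authors used are not given in the sources used here. Every per-library column was mapped to a sample by its title, and 0 columns were left without one. The authors tested with DESeq2.

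Here the counts were tested in R 4.3.3 with edgeR 4.0.16 (filterByExpr with min.count 10 and min.total.count 15, TMM, glmQLFit and glmQLFTest), with Benjamini-Hochberg adjustment over all genes tested. DESeq2 1.42.0 was an alternative. The SE was taken as the size of the log2 fold change over √F. The HER2 comparison used all 11 libraries in 2 groups. The line comparisons used a fit of 4 groups, and the trastuzumab comparisons a fit of line by treatment, so small arms took their spread from the others. HER2 status of treated MamBo43 is from the study's methods. The methods also list parental and trastuzumab-treated MamBo89 cells and a HER2-positive clone without naming it. The titles of the other MamBo89 libraries match the parental and treated cells, so AG3 is left as the clone, although the labels do not say so. CPM are counts per 1000000 of TMM-scaled library size. Exon lengths are from GENCODE M21 (GRCm38, the same build as mm10), where all 37 members were found by identifier. Promoter windows are from RefSeq (GRCm38.p6), and motifs were searched in them as exact strings on both strands. Ratios of members with 3 counts or fewer in a group carry exact binomial intervals at 95%, for counting error only.

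The members, the gene lists and the pairs were chosen with earlier results of these data known. Counts of members cover all 37. Values in every library are given for members called in any of the 8 comparisons, other than 1 member that is not reported here, with the trimer that holds it and 1 marker gene, and up to 3 called genes per direction are named from each list by size of the HER2 log2 fold change. On simulated counts with 200 genes changed 8-fold, the HER2 fit called 179 (89.5%) and 12 unchanged genes among 12270 tested. The simulated libraries were independent, with no differences between lines, and 8-fold is more than the log2 fold change of 1 required. These figures therefore do not cover genes that differ between lines, or smaller changes. Alternatives were DESeq2, another scaling, no filter, an adjusted p under 0.05, each library left out, and covariates for tumor or library code. Other levels or lengths were tried for the pairs. Not every alternative was run in every comparison.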

Additional observations from a re-analysis of the deposited data

Results flagged for a closer look

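In groups of 4 libraries, 48 combinations of member and line were tested for a library far from the other 3. The measure was the gap to its nearest neighbour over the range, and 8 passed. For libraries that are alike the cut-off passes about 1 in 20. Here the libraries of a line differed in treatment and the members share the libraries, so the 8 are not independent. In 7 of them the library was MamBo38 replicate 2, the untreated culture whose name carries another code than the remaining MamBo38 libraries. It had 4.41 CPM of Itga2b (others 5.82 to 5.96), 42.7 CPM of Itga3 (33.8 to 35.1), 626 CPM of Itga5 (380 to 408), 215 CPM of Itga6 (120 to 136), 13.3 CPM of Itga7 (20.0 to 20.6), 58.0 CPM of Lama3 (10.2 to 12.3) and 1317 CPM of Lamc1 (1037 to 1070). The remaining one was the AG3 library of MamBo89, with 443 CPM of Itga6 (others 524 to 539).

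The effect of trastuzumab differed between MamBo43 and MamBo89 in 10 members by the interaction term of the edgeR fit. The log2 difference was 3.33 for Itga5, 4.59 for Itgb7, 2.09 for Lamb1, 2.06 for Lama4 and 9.26 for Lama1, and -4.34 for Itgb3, -2.09 for Itgb4, -2.57 for Itga7, -3.01 for Itga8 and -1.53 for Itga6. The value of Lama1 rests on 1 count in MamBo89 and depends on the prior count. Without MamBo89 replicate 2 the difference was 1.41 for Itgb7, which was then not called, -3.34 for Itga7 and -3.79 for Itga8, and without the 60-day MamBo43 library it was 3.95 for Itgb7, not called, and -4.06 for Itga8. With a library left out in turn, the call was lost in 6 of 10 fits for Itgb7, 6 for Itga8, 7 for Lama1, 5 for Itga6 and 2 for Itga7.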

How the results depend on the processing

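No paired analysis was possible because the labels carry no replicate numbers, and those used here only follow accession order. No direction reversed under any alternative. In HER2-negative against HER2-positive libraries the count of called members was 9 with the tumor as a covariate, against 14, and 13 to 17 with a library left out. Leaving out a library gave 20 to 21 in MamBo38 against MamBo89, 10 to 15 in treated against untreated MamBo43, 12 to 17 in treated MamBo43 against MamBo38, 10 to 15 in untreated MamBo43 against untreated MamBo89, 5 to 12 for the trastuzumab effect in MamBo43 minus that in MamBo89, 0 to 8 for trastuzumab within MamBo89 and 0 within MamBo38. The lone untreated MamBo43 library could not be left out where a comparison needs it, and arms left with 1 library were assumed to vary like the other groups. The calls held under every alternative tried in a comparison for 8 of 14, 19 of 21, 10 of 12, 10 of 15, 9 of 12 and 5 of 10 members. These follow the order of the 6 comparisons with calls. The adjusted p under 0.05, the tumor covariate and the libraries of one code were tried in the HER2 comparison alone. Library code as a covariate was tried there, in MamBo38 against MamBo89 and in treated MamBo43 against MamBo38. The shares therefore cannot be ranked against each other. CPM with no length gave 15 integrin pairs in treated MamBo43 (9 per length) and 8 laminin trimers in MamBo38 (4 per length), and a level of 2 gave 2 trimers in MamBo38. The length of the longest coding transcript, an alternative chosen after seeing the data, gave pair counts within 1.5 times of these. Members with 3 counts or fewer in a group cannot be ranked at this depth.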
